A study of Mus musculus with 28 samples.

Results

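The signalling genes and transcription factors of Sertoli cells were examined in mouse testis mRNA. The set was named by symbol and holds 9 genes, Inha, Inhba, Inhbb, Amh, Fshr, Wt1, Sox9, Gata4 and Gdnf, and each matched 1 row among the 34839 rows of the gene table. Whole testis of C57BL/6 mice was sequenced as 2 libraries of Prdm9 knockout (KO, genotype Prdm9 -/-), 2 libraries of Hop2 KO (Hop2 -/-) and 1 library of adult wild type. The labels give no age, deleted exons, litter or number of animals for the knockouts, and only the wild-type library is called adult. Meiotic break peaks from 1 testis library of another genotype, Prdm9 (K/K), were used as well. PRDM9 is the histone methyltransferase that marks sites of meiotic recombination, and HOP2, whose gene is also called Psmc3ip, is a cofactor of strand exchange. Spermatocytes lacking either protein are known to stop in meiotic prophase, so these testes lack later germ cells.

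Sertoli cells are the somatic cells that enclose and nourish germ cells in the seminiferous tubule. Follicle-stimulating hormone (FSH) from the pituitary acts on them through its receptor, Fshr, and they answer with inhibin, a dimer of an alpha subunit (Inha) and a beta subunit (Inhba or Inhbb) that restrains FSH release. Beta subunits paired with each other form activins, which act in the opposite direction. Amh encodes anti-Müllerian hormone, made at high level by fetal and immature Sertoli cells and at low level after puberty. Gdnf encodes the growth factor that sustains spermatogonial stem cells, and Sox9, Wt1 and Gata4 encode transcription factors that establish and maintain the Sertoli identity.

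The genes lie on 8 chromosomes in build GRCm38.p6, with gene bounds from RefSeq. Inha (ENSMUSG00000032968) spans chr1:75507077-75510366, Inhbb (ENSMUSG00000037035) chr1:119415463-119422248 and Inhba (ENSMUSG00000041324) chr13:16004256-16031609. Amh (ENSMUSG00000035262) spans chr10:80805240-80807679, Gdnf (ENSMUSG00000022144) chr15:7810048-7837580 and Fshr (ENSMUSG00000032937) chr17:88984952-89200675. Wt1 (ENSMUSG00000016458) spans chr2:105126529-105173614, Sox9 (ENSMUSG00000000567) chr11:112782210-112787757 and Gata4 (ENSMUSG00000021944) chr14:63198914-63271712. Promoter windows, from 250 bases before to 50 after an annotated start, were found in RefSeq (GRCm38.p6) for 5 of the 9 genes. A window of each of the 5 is shown, since they hold the inhibin subunits, the FSH receptor and the stem cell factor, and for Gdnf, which has 2 windows, the first. Motif matches are in capitals: AGGTCA, which nuclear receptors such as the Sertoli factor NR5A1 bind, in Inha and Gdnf, the GC box, read on the reverse strand as CCGCCC, in Inhbb, CACGTG, the E-box, in Fshr, and TATAAA, the TATA box, in Inhba and Gdnf.
Inha chr1:75507359-75507658 (+): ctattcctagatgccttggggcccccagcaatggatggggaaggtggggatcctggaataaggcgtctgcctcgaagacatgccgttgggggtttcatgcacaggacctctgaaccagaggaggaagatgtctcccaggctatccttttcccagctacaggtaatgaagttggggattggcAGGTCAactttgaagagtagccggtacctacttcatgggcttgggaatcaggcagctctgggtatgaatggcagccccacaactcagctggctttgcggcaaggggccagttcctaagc
Inhbb chr1:119422199-119422498 (-): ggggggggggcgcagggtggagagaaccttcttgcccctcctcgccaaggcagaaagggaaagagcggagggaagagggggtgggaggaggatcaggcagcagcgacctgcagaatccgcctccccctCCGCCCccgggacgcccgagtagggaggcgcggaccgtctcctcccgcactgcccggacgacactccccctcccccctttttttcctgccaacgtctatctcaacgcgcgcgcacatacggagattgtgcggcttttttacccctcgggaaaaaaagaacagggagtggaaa
Inhba chr13:16011601-16011900 (+): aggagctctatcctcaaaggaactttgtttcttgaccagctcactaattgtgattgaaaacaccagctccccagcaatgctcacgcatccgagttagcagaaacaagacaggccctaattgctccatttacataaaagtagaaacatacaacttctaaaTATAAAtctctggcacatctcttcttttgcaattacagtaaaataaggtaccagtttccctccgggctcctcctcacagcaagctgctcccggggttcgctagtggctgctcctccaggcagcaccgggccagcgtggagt
Gdnf chr15:7809798-7810097 (+): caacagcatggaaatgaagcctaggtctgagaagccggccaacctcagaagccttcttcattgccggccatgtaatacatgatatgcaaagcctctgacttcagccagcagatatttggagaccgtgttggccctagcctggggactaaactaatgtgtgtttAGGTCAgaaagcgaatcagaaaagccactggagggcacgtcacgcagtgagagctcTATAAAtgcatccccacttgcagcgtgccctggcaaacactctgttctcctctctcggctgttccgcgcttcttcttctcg
Fshr chr17:89200626-89200925 (-): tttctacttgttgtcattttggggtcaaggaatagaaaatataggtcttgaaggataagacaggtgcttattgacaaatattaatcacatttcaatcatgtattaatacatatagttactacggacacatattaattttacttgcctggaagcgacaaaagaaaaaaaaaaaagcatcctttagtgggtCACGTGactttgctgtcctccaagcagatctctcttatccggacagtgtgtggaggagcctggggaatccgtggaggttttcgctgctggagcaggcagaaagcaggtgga

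Matches were read on both strands, and no 2 of them overlap in these windows. Among 32851 promoter windows of this length, AGGTCA occurred in 16.3%, the GC box GGGCGG in 35.7%, CACGTG in 7.15% and TATAAA in 13.6%, so none of these matches is rare. The AGGTCA of Inha began 69 bases before the start, the CCGCCC of Inhbb 122 bases and the CACGTG of Fshr 61 bases before theirs. The TATAAA of Gdnf began 31 bases before the start and that of Inhba 91 bases before it. The cAMP response element TGACGTCA, its variant form TGCGTCA, the GATA motif written AGATAA or with T first as TGATAA, and the SOX motif AACAAT were searched as well and had no match in the 5 windows shown (0). The Inha and Inhba windows, with their annotated starts, lie inside the gene bounds given above. For these genes the sequence before the bounds was not searched. The other Gdnf window, chr15:7813477-7813776 (+), held AGATAA 84 bases before its start, and the GATA motif occurred in 18.6% of all windows.

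Levels are the authors' values headed TPM, which correct for transcript length, so that genes can be compared with each other. The columns sum to 825459 to 953598 in the knockouts and 1622660 in wild type, and read depth is unknown. Psmc3ip was 3.51 and 5.06 in Hop2 KO, below 22.8 and 26.4 in Prdm9 KO, and all 4 were below the 197 of wild type. Prdm9 itself was 4.73 and 5.93 (Prdm9 KO), 10.7 and 15.0 (Hop2 KO) and 6.20 (wild type), which checks the Prdm9 label only weakly. All 14 other Sertoli genes listed for comparison (such as Cldn11, Trf, Dhh and Shbg) were detected in every library and were higher in each knockout library than in wild type. All 8 spermatid markers were lower in each knockout library, with sums of 12.4 to 44.1 against 114894.

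All 9 genes were higher in each of the 4 knockout libraries than in the wild-type library, and in each gene the lowest knockout value was at least 2 times wild type. Of 16261 genes tested, 26.8% met that condition. The levels kept nearly 1 order in every library. Inha was highest, followed in the knockouts by Wt1, Gata4, Inhbb, Sox9, Amh, Fshr, Gdnf and Inhba, and in wild type only Gata4 and Inhbb, at 24.5 and 25.6, stood in the other order. TPM values are relative within a library. In whole testis, more cells of a type, more RNA per cell and loss of RNA from other cells, such as spermatids, cannot be told apart.

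**Figure D1:**
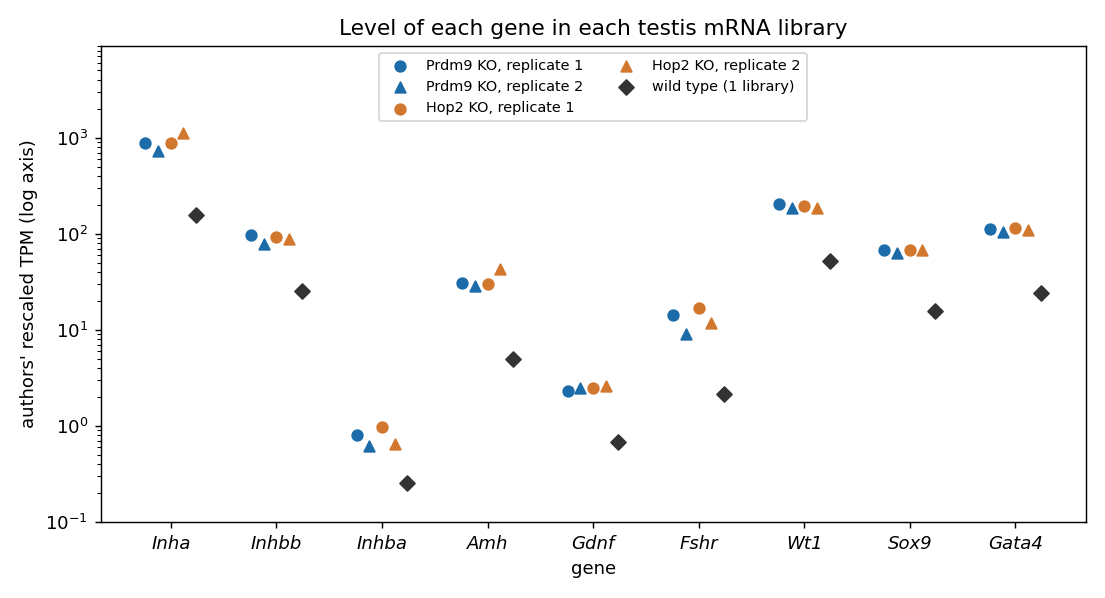
Level of each of the 9 genes (x axis) in the authors' rescaled TPM (y axis, log scale), with 1 point per library: circles and triangles are replicates 1 and 2 of Prdm9 KO (blue) and Hop2 KO (orange), and diamonds are the single wild-type library. The diamond is the lowest point of every gene, and the 4 knockout points of Sox9, from 63.3 to 68.5, lie almost on each other.

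Inha, the subunit shared by all inhibins, was the most abundant. It was 886 and 720 (Prdm9 KO), 888 and 1120 (Hop2 KO) and 156 (wild type). All 4 knockout values were well above wild type, and Hop2 KO replicate 2 was the highest. Relative to wild type, Inha rose by a log2 difference of 2.35 (SE 0.25, limma with Benjamini-Hochberg adjusted p = 0.00304) in Prdm9 KO and 2.67 (SE 0.25, adjusted p = 0.00216) in Hop2 KO.

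Inhbb, the beta subunit of inhibin B, was 97.3 and 77.6 (Prdm9 KO), 92.3 and 87.5 (Hop2 KO) and 25.6 (wild type). The knockout groups overlapped each other and lay apart from wild type. It rose by 1.72 (SE 0.17, limma adjusted p = 0.00262) in Prdm9 KO and 1.77 (SE 0.17, adjusted p = 0.00239) in Hop2 KO. Inhba, the other beta subunit, was near the floor of the data, at 0.806 and 0.621 (Prdm9 KO), 0.972 and 0.644 (Hop2 KO) and 0.256 (wild type). It was the 1 gene of the set below the minimum mean of 1 required for testing. Without that minimum its differences from wild type were 0.45 in Prdm9 KO and 0.52 in Hop2 KO, with limma adjusted p = 0.112 and 0.0826, so a change of Inhba was not established. One of its 2 transcripts (ENSMUST00000164993) was listed at 0 in wild type and held 40.1% to 68.7% of the gene value in the knockouts.

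The subunits thus stood in unequal amounts in every library. The level of Inha was 6.09 times that of Inhbb in wild type and 9.10, 9.28, 9.61 and 12.8 times in the knockout libraries. The level of Inhbb was 94.9 to 136 times that of Inhba in the knockouts and 99.9 times in wild type. The ratio of Inha to Inhbb was higher in each knockout library than in wild type, and the ratio of the 2 beta subunits was on both sides of it. With 1 wild-type library no exact permutation test of these ratios could reach a threshold of 0.05.

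Amh was 30.7 and 28.5 (Prdm9 KO), 30.2 and 43.0 (Hop2 KO) and 4.997 (wild type). The 4 knockout values were 5.70 to 8.61 times the adult wild-type value, with Hop2 KO replicate 2 highest, as for Inha. The rise was 2.35 (SE 0.25, limma adjusted p = 0.00318) in Prdm9 KO and 2.63 (SE 0.25, adjusted p = 0.00234) in Hop2 KO. Amh falls with maturation of Sertoli cells, and the age of the knockouts is not given. Age and genotype therefore cannot be told apart for this gene, nor for any other gene compared with wild type.

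Gdnf was a rare transcript. It was 2.30 and 2.47 (Prdm9 KO), 2.47 and 2.60 (Hop2 KO) and 0.688 (wild type), so that it entered the test only through its knockout values. The 4 knockout values were close together. On the log2(value + 1) scale, which understates changes of low values, the differences were 1.00 (SE 0.09, limma adjusted p = 0.00189) in Prdm9 KO and 1.07 (SE 0.09, adjusted p = 0.00159) in Hop2 KO, and by ratio of means the levels were 3.47 and 3.69 times wild type.

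Fshr, the receptor through which FSH reaches Sertoli cells, was 14.3 and 8.98 (Prdm9 KO), 17.0 and 11.8 (Hop2 KO) and 2.17 (wild type). It had the widest spread among the knockouts of the 9 genes (coefficient of variation 26.4%), and in both knockouts replicate 1 was the higher. It was the 1 of 8 tested genes whose replicate 1 exceeded 1.3 times replicate 2 in both knockouts, a pattern shown by 5.17% of genes tested, and 0 of 8 showed the reverse pattern, found in 6.64%. Of 6 macrophage markers, 5 were likewise higher in replicate 1 of both knockouts (sums 673 and 425 for Prdm9 KO, 760 and 646 for Hop2 KO, 75.0 for wild type). Of 6 peritubular myoid markers, 6 were (sums 800 and 546, 889 and 729, and 201), with no marker of either list at 0 in a knockout. These marker counts take any excess of replicate 1, and the share of all genes meeting that looser condition was not computed. The part of these cell types in the Fshr values was not tested. Fshr rose by 1.96 (SE 0.38, limma adjusted p = 0.0153) in Prdm9 KO and 2.26 (SE 0.38, adjusted p = 0.0103) in Hop2 KO.

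The transcription factors were the steadiest members, with coefficients of variation over the 4 knockout libraries of 3.72% for Sox9, 4.15% for Gata4 and 4.80% for Wt1. Sox9, which directs and maintains Sertoli fate, was 68.5 and 63.3 (Prdm9 KO), 68.0 and 68.3 (Hop2 KO) and 15.8 (wild type). Its highest knockout value was 1.08 times its lowest, and it rose by 1.99 (SE 0.10, limma adjusted p = 0.000490) and 2.04 (SE 0.10, adjusted p = 0.000455). Gata4, a zinc finger factor that Leydig cells express too, was 113 and 105 (Prdm9 KO), 115 and 109 (Hop2 KO) and 24.5 (wild type). Every knockout value was over 4 times wild type, with rises of 2.11 (SE 0.10, limma adjusted p = 0.000460) and 2.15 (SE 0.10, adjusted p = 0.000431). Wt1, the Wilms tumor factor needed to keep Sertoli identity, was 205 and 184 (Prdm9 KO), 192 and 187 (Hop2 KO) and 52.6 (wild type). The groups of knockouts overlapped, and the rises were 1.86 (SE 0.11, limma adjusted p = 0.000801) and 1.83 (SE 0.11, adjusted p = 0.000812).

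Transcript estimates were examined for Wt1 and Gata4, the members with several annotated transcripts besides Inhba. The leading Wt1 transcript of 9, ENSMUST00000139585, held 46.1% to 53.9% of the gene value in the knockouts and 52.4% in wild type. ENSMUST00000213301 came next in every library but Hop2 KO replicate 2, with 17.7% to 26.2% and 25.3%. A minor Wt1 transcript, ENSMUST00000133470, had levels of 14.7 and 4.09 in the Prdm9 KO libraries and 11.7 in Hop2 KO replicate 1, but only 4.86e-07 in Hop2 KO replicate 2 and 8.76e-09 in wild type, so its estimate was unstable within 1 genotype. The leading Gata4 transcript of 6, ENSMUST00000118022, held 42.2% to 51.9% in the knockouts and 48.2% in wild type. For both genes the leading transcript was therefore the same in all 5 libraries, and its wild-type share lay inside the knockout range.

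Of the 8 genes tested, 8 rose in Prdm9 KO and 8 in Hop2 KO, where 34.6% and 35.0% of all tested genes rose and 39.4% and 39.5% fell. Of these 8, 1 gene, Gdnf, was below the minimum mean in wild type and entered the test only through its knockout values. With columns rescaled to 1000000 these shares over all genes turned to 51.7% and 49.7% higher and 26.6% and 27.9% lower, and with quantile normalization to 49.8% and 49.7% higher and 29.1% and 29.3% lower. Both comparisons use the same wild-type library, which was assumed to vary like the knockouts, so they are not independent. The median log2 difference of the 8 genes was 1.98 in Prdm9 KO and 2.09 in Hop2 KO, beside -0.08 and -0.06 over all genes tested. By ratio of the mean of the 4 knockout libraries to wild type, the order was Amh (6.63), Fshr (6.01), Inha (5.80), Gata4 (4.51), Sox9 (4.24), Wt1 (3.65), Gdnf (3.58), Inhbb (3.46) and Inhba (2.97). Neighbours in this order overlapped in their knockout ranges, except that the lowest Sox9 ratio (4.01) was above the highest Wt1 ratio (3.89).

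The rise was next set against that of other Sertoli genes, to ask whether these 9 genes moved apart from the cell type. The geometric mean of the 14 other Sertoli genes was 95.1 in wild type, 418 and 431 in Prdm9 KO and 430 and 564 in Hop2 KO, so that it was 4.395 to 5.93 times wild type. With each library divided by this mean, 0 of 8 genes passed the test in either direction in either knockout (limma, Benjamini-Hochberg). In that scaling 1.10% of all tested genes were called higher and 73.3% lower in Prdm9 KO, and 0.800% and 76.1% in Hop2 KO. Before adjustment 0 of the 8 were below a p of 0.05 in Prdm9 KO, beside 76.3% of all genes, and 1 in Hop2 KO, beside 78.5%. That gene was Gdnf, with a scaled log2 difference of -0.33 (limma adjusted p = 0.0629).

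Relative to the Sertoli reference the genes fell on both sides of wild type. Amh was 1.26 to 1.45 times its wild-type ratio in the 4 knockout libraries, and Inha 1.02 to 1.29 times. Inhbb was at 0.576 to 0.864, Wt1 at 0.599 to 0.886, Gdnf at 0.638 to 0.793, Inhba at 0.423 to 0.839 and Sox9 at 0.728 to 0.987 of it, all 4 libraries below wild type. Gata4 (0.751 to 1.05) and Fshr (0.913 to 1.74) lay on both sides. The share of all genes with all 4 libraries on 1 side of wild type in this scaling was not computed. Most genes lay lower, as the median log2 difference over all genes was -2.24 in Prdm9 KO and -2.39 in Hop2 KO. The 95% intervals of the scaled log2 differences in Prdm9 KO ran from -0.15 to 0.93 for Amh, from -1.301 to 0.52 for Inhbb and from -1.05 to 0.51 for Wt1, so sizeable shifts in either direction were not resolved. Hop2 KO replicate 2 had the highest reference level and gave the lowest ratio for Inhbb, Inhba, Wt1, Sox9, Gata4 and Gdnf.

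**Figure D2:**
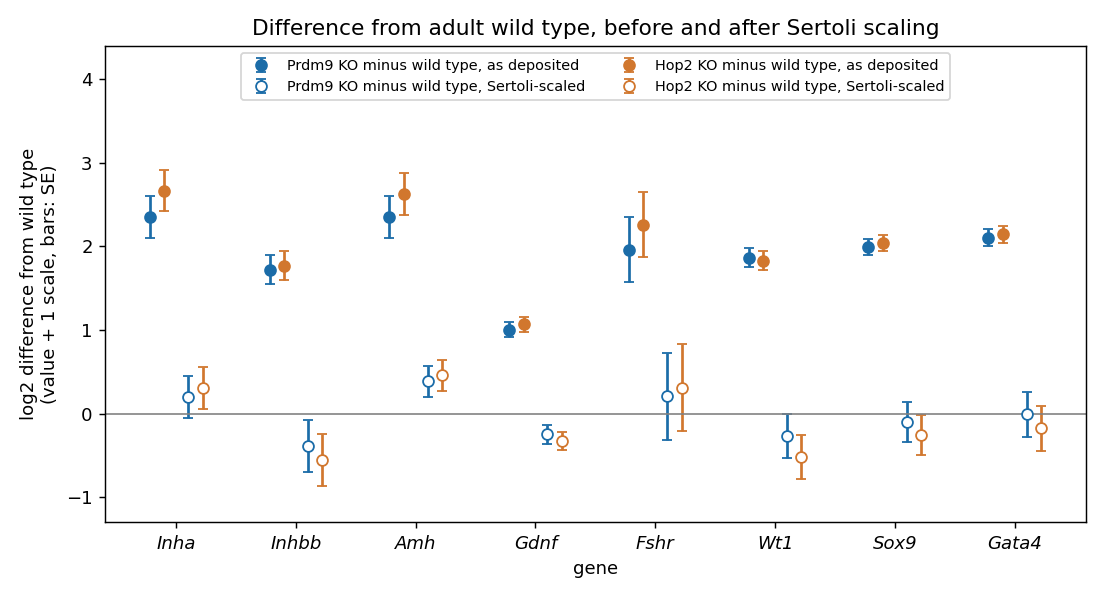
Log2 difference from wild type with its SE (y axis) for the 8 tested genes (x axis) in Prdm9 KO (blue) and Hop2 KO (orange). Filled points use the values as deposited and lie between 1.00 (Gdnf) and 2.67 (Inha); open points use libraries divided by the geometric mean of 14 other Sertoli genes and lie between -0.55 (Inhbb) and 0.46 (Amh).

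**Figure D3:**
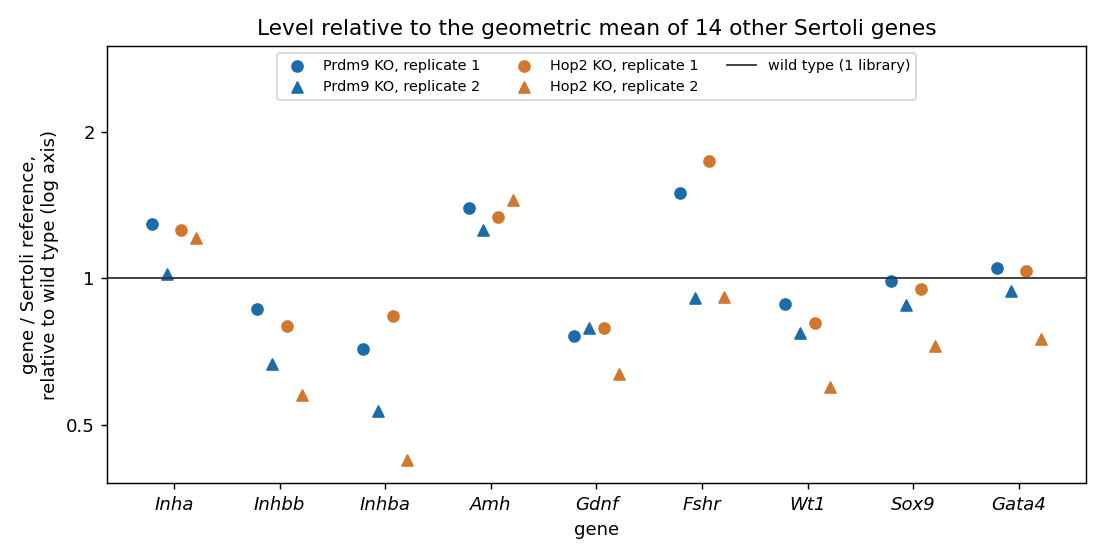
Ratio of each gene to the geometric mean of 14 other Sertoli genes, divided by the same ratio in wild type (y axis, log scale), for the 9 genes (x axis), with 1 point per knockout library and a line at wild type. Amh and Inha lie above the line in all 4 libraries and Inhbb, Inhba, Gdnf, Wt1 and Sox9 below it.

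Prdm9 KO and Hop2 KO were compared with each other, since both stop in meiosis and neither side of this comparison rests on the single wild-type library. Of the 8 genes tested 0 passed (limma, Benjamini-Hochberg), beside 0.0139% of all tested genes. Before adjustment 0 of the 8 were below a p of 0.05, beside 3.10% of all. The log2 differences, Prdm9 KO minus Hop2 KO, were -0.32 for Inha, -0.30 for Fshr, -0.28 for Amh and between -0.06 and 0.03 for the other genes tested. Their 95% intervals were narrowest for Sox9 (-0.33 to 0.24) and widest for Fshr (-1.03 to 0.43). For Inha the interval was -0.87 to 0.23 and for Amh -0.78 to 0.23, so differences below these bounds in size were not resolved with 2 libraries per group. The groups did not overlap for 2 of 9 genes, Inha and Gdnf, as for 32.9% of all tested genes. In the authors' deposited table of their own gene test, whose groups are not named, the p-values of the 9 genes were 0.121 for Inha, 0.179 for Amh and 0.405 or more for the rest, and every q-value was 1. Of all 21276 genes in that test, 1 had a q-value under 0.05 and 835 had a p-value under 0.05.

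**Figure D4:**
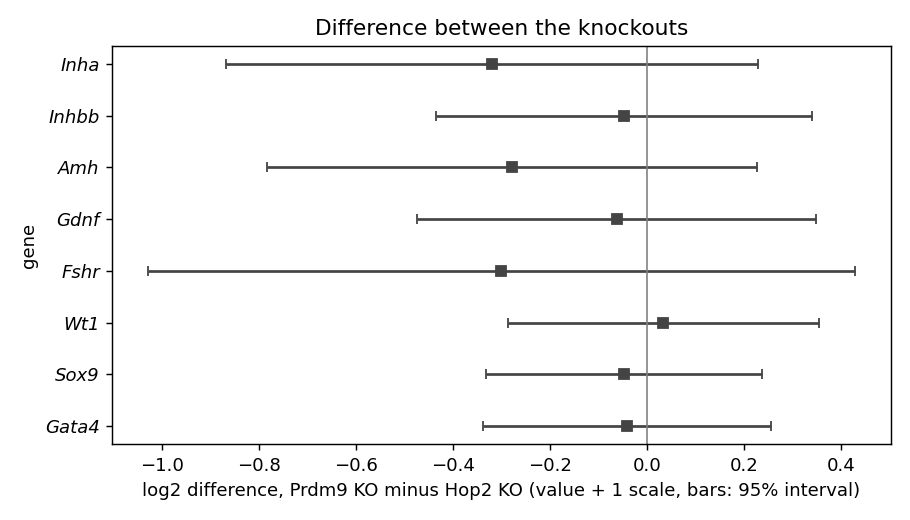
Log2 difference Prdm9 KO minus Hop2 KO (x axis) with its 95% interval for the 8 tested genes (y axis). Every interval includes 0, and that of Fshr, from -1.03 to 0.43, is the widest.

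Genes that receive or modify the activin and inhibin signal moved in both directions. The counts of this and the following lists stand beside the shares over all genes tested. These were 34.6% and 35.0% higher and 39.4% and 39.5% lower in Prdm9 KO and Hop2 KO. Of 13 listed, 10 were tested, and 8 rose and 1 fell in Prdm9 KO while 6 rose and 2 fell in Hop2 KO (limma adjusted p, as above). Fst, whose product follistatin binds activin, had the largest rise, at 7.48 and 10.97 (Prdm9 KO), 7.35 and 11.7 (Hop2 KO) and 0.852 (wild type) (log2 2.44 and 2.47, adjusted p = 0.00828 and 0.00791). In wild type Fst was below the minimum mean of 1, so that it entered the test only through its knockout values. The related Fstl3 rose by 1.73 and 1.88, the inhibitory Smad7 by 1.617 and 1.72 and the signal carrier Smad3 by 1.65 and 1.58. Tgfbr3, which encodes betaglycan, the inhibin co-receptor, rose by 1.57 and 1.58. The activin receptor gene Acvr2a fell, from 14.2 in wild type to between 6.22 and 7.06 in the knockouts (log2 -0.93 and -1.03, adjusted p = 0.00804 and 0.00608). Acvr1b, a type I activin receptor gene, was the other gene called lower in Hop2 KO (log2 -0.88, adjusted p = 0.0356). Tgfbr3, Acvr2a and Acvr1b were named after their values were seen. These falls are on the deposited scale, and with columns rescaled to 1000000 no gene of this list was called lower (0 in each knockout). The calls of lower genes in Prdm9 KO also went from 1 to 0 without Prdm9 KO replicate 1, and those in Hop2 KO from 2 to 1 without either Hop2 KO replicate.

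Of 9 genes of the AMH and bone morphogenetic protein receptor pathway 7 were tested, and 4 rose and 2 fell in Prdm9 KO while 3 rose and 2 fell in Hop2 KO. Amhr2, the specific AMH receptor, was far more abundant than its ligand, at 1136 and 1003 (Prdm9 KO), 1181 and 1229 (Hop2 KO) and 298 (wild type). It rose by 1.84 (limma adjusted p = 0.00280) and 2.01 (adjusted p = 0.00219). Its level was 28.6 to 39.1 times that of Amh in the knockouts and 59.7 times in wild type. The type I receptor gene Acvr1 rose by 1.68 and 1.85, whereas the inhibitory Smad6 (log2 -4.35 and -4.47) and the signal carrier Smad1 (-1.57 and -1.81) fell. Without Prdm9 KO replicate 1 the number of genes higher in Prdm9 KO was 1, and without Prdm9 KO replicate 2 it was 2.

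Among 15 genes of FSH signalling, all tested, 7 rose and 3 fell in each knockout. Gnas, which encodes the stimulatory G protein subunit below Fshr, rose by 2.02 and 2.15 (limma adjusted p = 0.00219 and 0.00182). Crem, a cAMP-responsive factor abundant in spermatids, fell (log2 -5.33 and -5.16), as did the kinase subunit gene Prkar2a (-4.17 and -4.04) and the immediate-early gene Nr4a1 (-3.06 and -2.16). The number of higher genes in Prdm9 KO was 3 without Prdm9 KO replicate 1. It was 12 and 11 in Prdm9 KO and Hop2 KO with columns rescaled to 1000000 and 11 in each with quantile normalization.

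Of 10 GDNF receptor and response genes 5 rose and 4 fell in Prdm9 KO, and 5 rose and 5 fell in Hop2 KO. Over all genes tested 39.4% and 39.5% fell, so the falling counts were near that share. Cxcl12, a chemokine for germ cells, was 108 and 104 (Prdm9 KO), 123 and 107 (Hop2 KO) and 13.5 (wild type) (log2 2.89 and 3.00, limma adjusted p = 0.000332 and 0.000297), and its receptor gene Cxcr4 rose by 1.69 and 1.81. The adhesion molecule gene Ncam1 (log2 -3.35 and -3.32) and the homeobox gene Lhx1 (-2.28 and -2.33) fell. Lhx1 was 0.0911 to 0.235 in the knockouts and 4.78 in wild type, so it passed the minimum mean only through the wild-type library. The receptor parts of GDNF itself, named after their values were seen, went different ways. Ret, at 0.801 in wild type, entered the test only through its knockout values, as did Pou3f1 on the same list, at 0.936. Ret rose by 1.61 and 1.39 (limma adjusted p = 0.00404 and 0.00578), while Gfra1 was 2.92 and 3.40 (Prdm9 KO), 1.97 and 1.80 (Hop2 KO) and 4.24 (wild type). Gfra1 fell in Hop2 KO (log2 -0.86, adjusted p = 0.00723) and had a log2 difference of -0.34 in Prdm9 KO (adjusted p = 0.0829), and the difference between the knockouts, 0.52, did not pass (adjusted p = 0.972). The falls on this list are scale dependent: 1 gene was called lower in each knockout with columns rescaled to 1000000 and 2 with quantile normalization.

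Of 16 other Sertoli and gonadal transcription factors 15 were tested, and 12 rose and 3 fell in each knockout. Nr5a1, the steroidogenic factor that Leydig cells also express, rose by 2.54 and 2.51 (limma adjusted p = 0.000303 and 0.000310), and Gata1, a GATA factor of Sertoli cells, by 2.49 and 2.68 (0.000575 and 0.000470). Emx2 and Lhx2, homeobox genes of the early gonad, fell (log2 -2.52 and -2.50 for Emx2, -2.43 and -2.73 for Lhx2). The third, Zfpm2, a GATA4 partner named after its values were seen, was 0.477 and 0.707 (Prdm9 KO), 0.5003 and 0.432 (Hop2 KO) and 4.45 (wild type), and fell (log2 -1.78 and -1.89). Zfpm2 and Emx2 (0.0655 to 0.12 in the knockouts, 5.19 in wild type) passed the minimum mean only through the single wild-type library in which they were high. Lhx9, counted among the genes that rose, was 0.731 in wild type and entered the test only through its knockout values.

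Of the 14 other Sertoli genes 10 rose and 0 fell in Prdm9 KO and 11 rose and 0 fell in Hop2 KO (median log2 difference 2.07 and 2.24). The largest rises were Shbg, the androgen-binding protein gene (2.86 and 3.12), Trf, transferrin (2.64 and 2.84), the defensin gene Defb36 (2.55 and 2.84) and the tight junction gene Cldn11 (2.45 and 2.63). Leydig markers moved with them, as 7 of 8 rose in each knockout (median 2.70 and 2.71). The sum of the 8 was 26210 to 73494 against 5912, most of it from Insl3 in every library (21025 to 68224 against 5124). Their geometric mean was 667 to 795 against 107, and no marker was at 0. Hsd3b6 rose by 3.01 and 3.34, Hsd17b3 by 2.62 and 2.91 and Hsd3b1 by 3.18 and 2.72, while the hormone gene Insl3 had differences of 2.87 and 2.89 that did not pass (limma adjusted p = 0.300 and 0.298). Leydig cells are known to express Inha and Gata4, and their part in these values was not tested. Macrophage markers rose in 6 of 6 in each knockout (median 2.61 and 2.80), led by Lyz2 (3.25 and 3.64), C1qa (3.10 and 3.52), Csf1r (2.96 and 3.13) and Cd68 (2.27 and 2.47).

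Peritubular myoid cells, which are known to make Gdnf as well, had 2 of 6 markers higher in Prdm9 KO and 4 of 6 in Hop2 KO. Myl9 rose by 1.94 and 2.14 and Des by 1.36 and 1.66, while Acta2 (1.59 and 2.05) and Myh11 (0.81 and 1.09) passed in Hop2 KO only (limma adjusted p = 0.0670 and 0.0352 for Acta2, 0.0706 and 0.0339 for Myh11), which does not show that the knockouts differ. Without Hop2 KO replicate 1 or replicate 2 the Hop2 KO count was 2, and without Prdm9 KO replicate 1 the Prdm9 KO count was 1. Spermatogonial markers rose in 5 and fell in 1 of 7 tested in each knockout, with Kit at 2.30 and 2.04, Stra8 at 1.99 and 2.09, Uchl1 at 1.78 and 2.00 and Dmrtb1 at -5.01 and -5.28. Spermatid markers fell in 8 of 8 in each knockout, with Prm2 at -14.59 and -13.48, Tnp2 at -14.17 and -13.19, Prm1 at -13.99 and -13.22 and Tnp1 at -13.01 and -12.28, and Prm2 was at 0 in Hop2 KO replicate 1. Acrv1 was 0.0145 to 0.264 in the knockouts and 393 in wild type, and Smcp 0.0314 to 1.89 and 6853. Acrv1 and Smcp passed the minimum mean only through the single wild-type library in which they were high. None of the genes in these lists passed between the knockouts (0 of 101 tested, limma).

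For the tested genes other than Gata4, the closest profile over the 5 libraries was sought among 13962 other genes, by Euclidean distance of log2(value + 1) centred on its mean. These were Tspan17 for Inha (distance 0.126), Ripor1 for Inhbb (0.0555), Shc2 for Amh (0.130), Arxes2 for Fshr (0.0919), Zc3h7b for Wt1 (0.0379), Syde1 for Sox9 (0.0355) and Iars2 for Gdnf (0.0336). Within the set, Sox9 and Gata4 were nearest to each other (0.113), as were Inha and Amh (0.183) and Inhbb and Wt1 (0.171). The 5 libraries differ mainly between knockout and wild type. In this distance 6 to 110 genes were closer to Inha, Amh, Inhbb, Wt1, Sox9 or Gata4 than its nearest member was. For Fshr 663 genes were closer and for Gdnf 4042. The log2(value + 1) scale understates changes of low values, so a near profile need not have the same ratio to wild type. Iars2 was 41.9 to 44.8 in the knockouts and 20.9 in wild type, whereas the mean of Gdnf was 3.58 times wild type.

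A readout independent of mRNA was the list of 17731 meiotic break peaks mapped by sequencing of single-stranded DNA (SSDS) in 1 testis library of Prdm9 (K/K) mice, whose PRDM9 lacks its KRAB domain. The peaks come from germ cells, whereas the 9 genes act in Sertoli cells. A peak lay within 1000 bases of an annotated gene end for 3 of the 9 genes (33.3%), Wt1, Sox9 and Gdnf, against 45.5% of 21887 protein-coding genes and 3 of the 14 other Sertoli genes. The Sox9 peak, chr11:112782269-112786118, covered much of that gene, and the Wt1 peak, chr2:105125945-105127866, spanned the gene's lower-numbered end. The Gdnf peak, chr15:7809417-7811708, covered the whole window printed above, the peak chr15:7811911-7815944 covered the other Gdnf window, and the peak chr13:16011257-16013078 covered that of Inhba and began 7001 bases inside the gene's bounds. The windows of Inha, Inhbb and Fshr held no peak, and of all 32851 promoter windows 32.8% overlapped one. The nearest peak to Amh was 62377 bases away and that to Fshr 229873 bases away. Gata4 held 4 peaks inside its bounds, the nearest 2409 bases from an end.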

How the data were processed

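Of the series, 5 mRNA libraries of testis and the break peaks of 1 SSDS library were used; the other 22 samples were not analysed here. Per the file headers, the deposited gene and transcript values are TPM, here treated as a signal because the columns do not sum to a common total. The mRNA tools named in the submitters' processing notes are CASAVA, kallisto and sleuth, and those for SSDS include MACS2 2.1.0.20150420; builds are GRCm38 and mm10, and no other version is given there. A deposited table holds the authors' p-values and q-values from a test per gene. The deposited peak list holds positions only, an other kind of value with no score.

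Values were tested as log2(value + 1) in limma 3.58.1 (R version 4.3.3), letting the prior variance follow intensity, over genes with a mean of at least 1, with Benjamini-Hochberg adjustment over all genes tested and a threshold of 0.05. The knockouts were compared in a fit of 4 libraries and each with wild type in a fit of all 5. Whether replicates are separate animals is not stated, so each p-value reflects only the spread among these libraries, possibly technical. Rhox5 has 2 rows with equal values, and 1 was used. No column was left unused (0). The fit was tested on simulated data with 200 genes changed by a log2 of 2. It recovered 193 between the knockouts, 187 for Prdm9 KO and 183 for Hop2 KO against wild type, with 11, 12 and 13 false calls. Far more genes were called against wild type in the real data, so the simulation does not check those comparisons at that extent of change.

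The 9 genes and the lists were chosen with earlier results of these data known. All 9 genes are described, and from each list the 4 tested genes with the largest mean difference from wild type are named, with any past the threshold between the knockouts; Prdm9 and Psmc3ip check the labels, and 1 nearest profile is named per gene, leaving out predicted genes, clones and pseudogenes; that of Gata4 is not reported here. Alternatives were other pseudocounts, filters and scalings, no trend, libraries left out in turn and, between the knockouts, all 5 libraries or a replicate term.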

Additional observations from a re-analysis of the deposited data

How the results depend on the processing

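Each tested member kept its rise over wild type and its call in 190 of 190 alternatives other than the Sertoli scaling. Over these, Fshr came closest to the threshold, with limma adjusted p = 0.0495 without Prdm9 KO replicate 1 and 0.0436 (Hop2 KO) without Hop2 KO replicate 1, and Gdnf had the smallest difference, 0.38, with a pseudocount of 5. Gdnf could not be fitted with a minimum mean of 5. The size of the rises depended on the setting. Over the same alternatives the Prdm9 KO log2 difference ran from 2.20 to 3.37 for Inha, 1.56 to 2.62 for Inhbb and 1.95 to 3.00 for Gata4. In Hop2 KO it ran from 2.50 to 3.51, 1.63 to 2.55 and 1.99 to 2.92 for these genes. Leaving out 1 library gave 8 higher members in each comparison with wild type, and over the other lists 52 to 68 higher genes in Prdm9 KO and 58 to 60 in Hop2 KO, where 66 were called with all libraries. Scaling on the other Sertoli genes removes what the cell type shares by construction. It left 0 higher members in each knockout and 2 higher list genes in each. Under it the Prdm9 KO differences from wild type turned to -0.39 for Inhbb, -0.27 for Wt1, -0.10 for Sox9, -0.00781 for Gata4 and -0.25 for Gdnf, and the Hop2 KO differences to -0.55, -0.52, -0.26, -0.18 and -0.33. The median over all genes in Prdm9 KO moved from -0.08 to 0.77 with rescaled columns, 0.65 with quantile normalization, 0.18 with median-ratio scaling and -2.24 with Sertoli scaling, and in Hop2 KO from -0.06 to 0.68, 0.65, 0.19 and -2.39. Between the knockouts no member passed in any alternative (0), and the small differences changed sign as follows. With rescaled columns they were 0.0734 for Inhbb, 0.073 for Sox9, 0.0799 for Gata4 and 0.0256 for Gdnf. With quantile normalization they were 0.0315 for Inhbb, 0.0122 for Sox9 and 0.0463 for Gata4, and with Sertoli scaling 0.164 for Inhbb, 0.163 for Sox9, 0.171 for Gata4 and 0.0878 for Gdnf. Leaving out each library gave -0.209 to 0.113 for Inhbb, -0.608 to 0.00718 for Fshr, -0.105 to 0.00808 for Sox9 and -0.0983 to 0.0141 for Gata4, each with its highest value without Prdm9 KO replicate 2, and -0.044 (without Prdm9 KO replicate 1) to 0.111 for Wt1; the cause was not tested. With replicate number as a block, 0 members passed and Fshr had the lowest limma adjusted p (0.462); the differences between replicates 1 and 2 correlated at 0.413 across genes between the knockouts, but the labels do not pair these libraries. The block moved the count over all genes from 2 to 8. No paired analysis was possible with wild type because its 1 library carries no number.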

Other observations

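Of the 14 other Sertoli genes, 6 were higher in replicate 1 of both knockouts and 7 in replicate 2 of both. The examples were picked after their values were seen, and the pattern was not tested. All counts here take any excess of a replicate, and the share of all genes with such an excess was not computed. Higher in replicate 2 were the cystatin gene Cst12 (604 and 876 for Prdm9 KO, 580 and 1351 for Hop2 KO), the defensin gene Defb19 (2773 and 3861, 2618 and 5409) and the homeobox gene Rhox8 (33.4 and 55.6, 35.7 and 78.2). Higher in replicate 1 were Trf (129 and 97.7, 146 and 113), Cldn11 (804 and 599, 807 and 765) and Defb36 (1018 and 643, 998 and 984). Among the 9 genes described above, 5 were higher in replicate 1 of both knockouts and 1, Gdnf, in replicate 2 of both.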
